A study of Homo sapiens with 8 samples.

Results

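Mesoderm induction on a soft gel was followed in H9, a long-established line of human embryonic stem cells, by setting the transcriptome of cells grown on a 400 Pa substrate at day 3.5 against that of undifferentiated cells on the same substrate at day 0. The comparison used 4 of the 8 libraries of the study, 2 for each day. All H9 cells were maintained in KSR-DMEM and then placed on gels in medium conditioned by feeder cells. The day 0 group received no inducing factors, and the day 3.5 group, which the labels call multipotent mesoderm progenitors, received bFGF, Activin, VEGF and BMP4. The other 4 libraries came from the same 2 days on a 60 kPa (stiff) substrate, and their values are set beside those of the soft gel. Whether the 2 libraries of each group are separate cultures is not stated in the labels, and H9 is 1 line, so the values describe this line only.

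Pluripotent cells of the epiblast leave that state through the primitive streak, where WNT, Nodal and BMP signals turn on T-box and homeobox factors and cells lose epithelial contacts. The nascent mesoderm is then patterned along the streak: low BMP favours paraxial mesoderm, which forms somites, and high BMP favours lateral plate and extraembryonic mesoderm, which form heart, blood vessels, limb mesenchyme and the connective tissue of the extraembryonic membranes. In culture, Activin stands in for Nodal, bFGF maintains ERK signalling, BMP4 drives mesoderm towards its lateral fates and VEGF acts on the progenitors of vessels and blood. BMP4 can also turn human pluripotent cells towards amnion-like or trophoblast-like states.

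Each deposited table gives 1 FPKM (fragments per kilobase of transcript, scaled to the library's mapped fragments, a level corrected for gene length) per group and not per library, so no SD stands behind a single level and the read depth is unknown. The tables of the days were made separately, and the difference between days was therefore described without a test. The change of a gene is log2((FPKM at day 3.5 + 1) / (FPKM at day 0 + 1)) on 400 Pa, and "higher" or "lower" in a count means a change of at least 1 on this scale, called 2-fold below. Adding 1 understates the change of low genes. As a measure of the spread between library groups, the same calculation between the gels at day 0, within 1 table, gave values from -0.79 to 0.88 for 95% of 14319 symbols, and 3.62% of them passed 2-fold in either direction. That spread holds any effect of the gel, and does not hold any difference between separately made tables. Among genes that every cell uses, the median change from day 0 to day 3.5 over 63 ribosomal protein genes was 0.27 and over 20 housekeeping genes -0.06.

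Of 25607 gene symbols present in both tables, 15153 reached 1 FPKM on either day on 400 Pa. Among these, 1479 (9.76%) were higher at day 3.5 and 933 (6.16%) were lower, so that 15.9% passed 2-fold in either direction. The median change was -0.00075. Scaling on the median ribosomal protein gene turned the balance, with 1037 symbols higher and 1454 lower, and it moved the median change to -0.25, so the share of higher symbols among all those past 2-fold was 61.3% as deposited and 41.6% under that scaling. Changes of at least 4-fold were found for 385 higher and 168 lower symbols, and 64 and 32 passed 16-fold. Of the higher symbols, 46.0% were below 1 FPKM at day 0, and 34.9% of the lower ones were below 1 FPKM at day 3.5. A gene near 0 at day 0 reaches the minimum only through day 3.5 and is then 2-fold higher nearly by construction, so the count of higher members in a list of such genes carries no weight of its own; the number of these members is given beside the count. On 60 kPa, with its own minimum of 1 FPKM, 6.84% of 14893 symbols were higher and 4.33% lower.

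**Figure D1:**
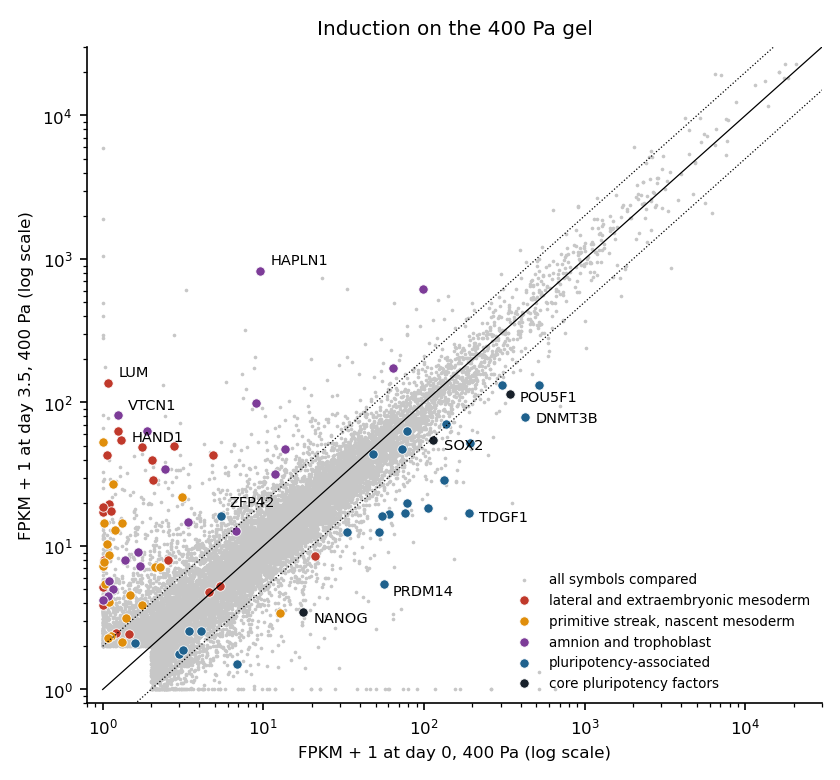
FPKM + 1 at day 0 (x axis) and day 3.5 (y axis) on 400 Pa, both on log scales, for the 15153 symbols compared; the solid line marks equal levels and the dotted lines 2-fold. Pluripotency genes (blue and black) lie mostly below the lower dotted line, and most mesoderm, streak and amnion genes lie above the upper one, many of them near the left edge because they were close to 0 at day 0.

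The labelled states were first checked against defining markers. At day 0 on 400 Pa the 6 markers of pluripotent cells summed to 1296 FPKM and the 8 markers of streak and mesoderm with a value on both days summed to 10.4 FPKM. At day 3.5 these sums were 447 and 169 FPKM. Of the pluripotency markers 5 were lower and 1 was higher, and all 8 mesoderm markers were higher. Except for KDR, at 9.07 FPKM, these 8 were below 1 FPKM at day 0, so the minimum largely fixed their direction. The 6 amnion or trophoblast markers summed to 14.9 FPKM at day 0 and 196 at day 3.5. Of these 6, 5 were higher, some from below 1 FPKM, and none was lower. Sums over different genes do not rank the cell types against each other. Mesoderm markers were thus present at day 3.5, beside amnion or trophoblast markers and part of the pluripotency marker signal. In bulk RNA, fewer cells of a type and less RNA per cell cannot be told apart.

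Core pluripotency factors were lower on the soft gel at day 3.5, all 3 of 3, against 6.16% of all symbols compared. POU5F1 (chr6:31126158-31148508, hg19), the POU-domain factor OCT4, was at 339.8 FPKM at day 0 and 114 at day 3.5 (change -1.57). NANOG (chr12:7940390-7948953, hg19), a homeobox factor of the epiblast, was at 16.7 and 2.46 FPKM (-2.35). SOX2, which binds DNA together with OCT4, was at 114 and 54.0 FPKM (-1.06). The decrease was deepest for NANOG and shallowest for SOX2, which lay close to 2-fold. On the stiff gel POU5F1 and NANOG had similar changes, -1.74 and -2.64, but SOX2 was at 116 FPKM at day 0 and 164 at day 3.5. The difference between the gels in the change of SOX2 was -1.57 with a standard error (SE) of 0.95 and did not pass the test described further on.

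Of 25 pluripotency-associated genes compared, 15 were lower, 1 was higher and 9 stayed within 2-fold, with a median of -1.76 against -0.00075 for all symbols. TDGF1 (chr3:46556913-46668033, hg19), the Nodal co-receptor CRIPTO, was at 188 FPKM at day 0 and 15.9 at day 3.5 (-3.49). PRDM14, a regulator that restrains lineage genes in human embryonic stem cells, was at 55.5 and 4.45 FPKM (-3.38). USP44, a histone deubiquitinase of stem cells, was at 105 and 17.3 FPKM (-2.54), and DNMT3B, the de novo DNA methyltransferase of the epiblast, was at 423 and 78.3 FPKM (-2.42). These 4 had the largest decreases of the list, and each was also lower on 60 kPa. For NANOG and TDGF1 the tables also hold near-identical copies, NANOGP8 (23.5 and 2.27 FPKM) and TDGF1P3 (27.1 and 1.70 FPKM), between which reads may be split; the copies were lower as well.

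Some genes of the undifferentiated state stayed within 2-fold. LIN28B, an RNA-binding protein that blocks let-7 processing, was at 77.3 FPKM at day 0 and 61.8 at day 3.5 (-0.32), whereas its homologue LIN28A was lower, at 304 and 131 FPKM (-1.21). SALL4, a zinc-finger factor also used in nascent mesoderm, was at 71.7 and 46.1 FPKM (-0.63), and CD9, a tetraspanin of the cell surface, at 47.0 and 43.1 FPKM (-0.12). ZFP42 (REX1), commonly used as a marker of the undifferentiated state, was the only member that was higher, at 4.49 FPKM at day 0 and 15.3 at day 3.5 (1.57), with 2.90 and 10.2 FPKM on 60 kPa. Its direction is thus opposite to that of the other markers of pluripotent cells and the same on both gels. Genes of the list that differed in direction between the gels included OTX2 (136 to 69.3 FPKM on 400 Pa, 82.2 to 152 on 60 kPa) and ZIC2 (32.1 to 11.6 on 400 Pa, 32.4 to 37.3 on 60 kPa), both of which are also used by anterior neural tissue.

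Of 21 primitive streak and nascent mesoderm genes compared, 19 were higher and 1 was lower, but 17 of the 21 were below 1 FPKM at day 0. Their levels are therefore described gene by gene. T (chr6:166570812-166582188, hg19), the brachyury T-box factor that defines the streak, was at 0.187 FPKM at day 0 and 12.0 at day 3.5 (3.45). MIXL1 (chr1:226411319-226415135, hg19), a homeobox factor of the streak, was at 0.0907 and 7.60 FPKM (2.98). EOMES, a T-box factor upstream of both mesoderm and endoderm, was at 0.0331 and 4.40 FPKM (2.39). All 3 went from near 0 to a moderate level, and the same genes on 60 kPa reached 5.15, 6.39 and 3.44 FPKM.

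Genes that act as cells leave the streak were present at day 3.5 at the same time. MESP1, a bHLH factor of the earliest cardiac and cranial mesoderm, was at 0.311 FPKM at day 0 and 13.5 at day 3.5 (3.47). MSGN1, which drives paraxial mesoderm from the streak, was at 0.0144 and 13.4 FPKM (3.82), whereas TBX6, its partner in presomitic mesoderm, reached only 2.13 FPKM from 0.399 (1.16). APLNR (chr11:57001051-57004773, hg19), the apelin receptor found on lateral mesoderm progenitors, had the largest change of the list, from 0.0109 to 52.2 FPKM (5.72). CER1, a secreted inhibitor of Nodal, BMP and WNT, was at 2.10 and 20.8 FPKM (2.81). FOXH1, the DNA-binding partner of SMAD2 in the Nodal response, was the only lower member, at 11.6 and 2.40 FPKM (-1.89). The Notch ligands DLL1 (1.13 and 6.16 FPKM) and DLL3 (1.27 and 6.09 FPKM) and the somite factor MESP2 (0.487 and 3.56 FPKM) were higher, and RIPPLY2 was at 0.326 and 1.13 FPKM (0.68). FGF17 had no row at day 0 and was at 0.629 FPKM at day 3.5, and FGF4 lies in a merged row. GSC, a homeobox factor of the organiser, had no row at day 0 and was at 0.151 FPKM at day 3.5, and LHX1 was at 0.131 and 1.37 FPKM (1.06).

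Of 23 lateral and extraembryonic mesoderm genes compared, 19 were higher and 1 was lower (median 3.80), and 15 of the 23 were below 1 FPKM at day 0. Among the 8 at or above 1 FPKM at day 0, 5 were higher and 1 was lower. HAND1 (chr5:153851315-153857921, hg19), a bHLH regulator of heart and extraembryonic mesoderm, went from 0.296 FPKM at day 0 to 53.8 at day 3.5 (5.40). TBX3 (chr12:115107021-115122357, hg19), a T-box factor of limb, heart and extraembryonic tissue, was at 0.0639 and 42.4 FPKM (5.35). MEIS1, a cofactor of HOX proteins, was at 0.245 and 62.4 FPKM (5.67), and ISL1, a factor of the second heart field and hindlimb, was at 0.762 and 47.7 FPKM (4.79). These factors changed from under 1 FPKM to over 40 FPKM on the soft gel. On 60 kPa they reached 6.07 (HAND1), 4.90 (TBX3), 7.75 (MEIS1) and 9.44 FPKM (ISL1).

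Further homeobox and T-box members followed the same direction. MSX1 and MSX2, homeobox factors downstream of BMP, went from 0.0999 and 1.76 FPKM at day 0 to 18.6 and 49.0 at day 3.5. PRRX1, a homeobox factor of limb and head mesenchyme, was at 0.122 and 16.4 FPKM (3.96), and TBX4, a T-box factor of the hindlimb and allantois, at 0.0164 and 6.93 FPKM (2.96). HAND2, a paralogue of HAND1 in heart and limb, and GATA4, a cardiac and endodermal zinc-finger factor, were listed at 0 at day 0 and were at 16.2 and 2.89 FPKM at day 3.5. FOXF1, a forkhead factor of lateral plate and extraembryonic mesoderm, and FENDRR, the noncoding RNA transcribed beside it, had no row at day 0 and were at 4.19 and 2.71 FPKM at day 3.5. Not every member moved: PDGFRB, a receptor of mesenchymal cells, was at 4.34 and 4.26 FPKM, PRRX2 at 3.58 and 3.76 FPKM, and BNC2 was lower, at 20 and 7.56 FPKM (-1.29). Others of the list were higher from a low start: MEIS2 (3.84 and 42.3 FPKM, a gene that holds a small RNA gene), LIX1 (1.06 and 27.7 FPKM), IRX3 (1.56 and 6.95 FPKM), TBX20 (0.0127 and 3.25 FPKM) and GATA5 (0.209 and 1.46 FPKM). MEF2C was at 0.451 and 1.44 FPKM (0.75), and TBX2, TBX18 and SFRP5 did not reach 1 FPKM. FOXF2 had no row at day 0 and was at 0.704 FPKM at day 3.5. TBX5, a cardiac T-box factor, and TCF21, of epicardium, stayed below 1 FPKM on both days (0.112 and 0.354 FPKM at day 3.5).

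The extracellular matrix genes LUM and COL3A1, also on that list, stood out by size. LUM (chr12:91496406-91505608, hg19), a small leucine-rich proteoglycan, was at 0.0797 FPKM at day 0 and 136 at day 3.5 (6.99), and its relative DCN was at 0.0977 and 38.7 FPKM (5.18). COL3A1, the chain of collagen III, was at 0.00694 and 17.7 FPKM (4.21). These genes are also markers of fibroblasts, and the cells were held in medium conditioned by feeder cells. Of 5 fibroblast markers, 2 (LUM and DCN) were higher, 1 (THY1, 135 and 25.5 FPKM) was lower, and COL1A1 (9.32 and 17.8 FPKM) and COL1A2 (9.45 and 18.2 FPKM) were within 2-fold. Their sum was 154 FPKM at day 0 and 236 at day 3.5 on 400 Pa, and 208 and 66.7 FPKM on 60 kPa. THY1 alone was 135 of the 154 FPKM, so the sum does not follow the other markers. On 60 kPa LUM was at 0.0223 and 4.69 FPKM and DCN was listed at 0 and at 3.79 FPKM. There COL1A2 was at 7.75 and 24.2 FPKM and COL1A1 at 8.95 and 7.15 FPKM. Whether any RNA of other cells contributes was not tested. In the paraxial and intermediate mesoderm list 4 of 6 members compared were higher, 5 of the 6 being below 1 FPKM at day 0. The higher members were led by HEY1 (0.354 and 23.5 FPKM) and EYA1 (0.619 and 15.6 FPKM). A further 9 members, PAX8, MEOX1, TCF15, FOXC2 and OSR1 among them, were below 1 FPKM on both days. The paraxial and somite genes MSGN1, TBX6 and MESP2 were counted in the streak list above, so this list alone does not measure paraxial mesoderm.

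**Figure D2:**
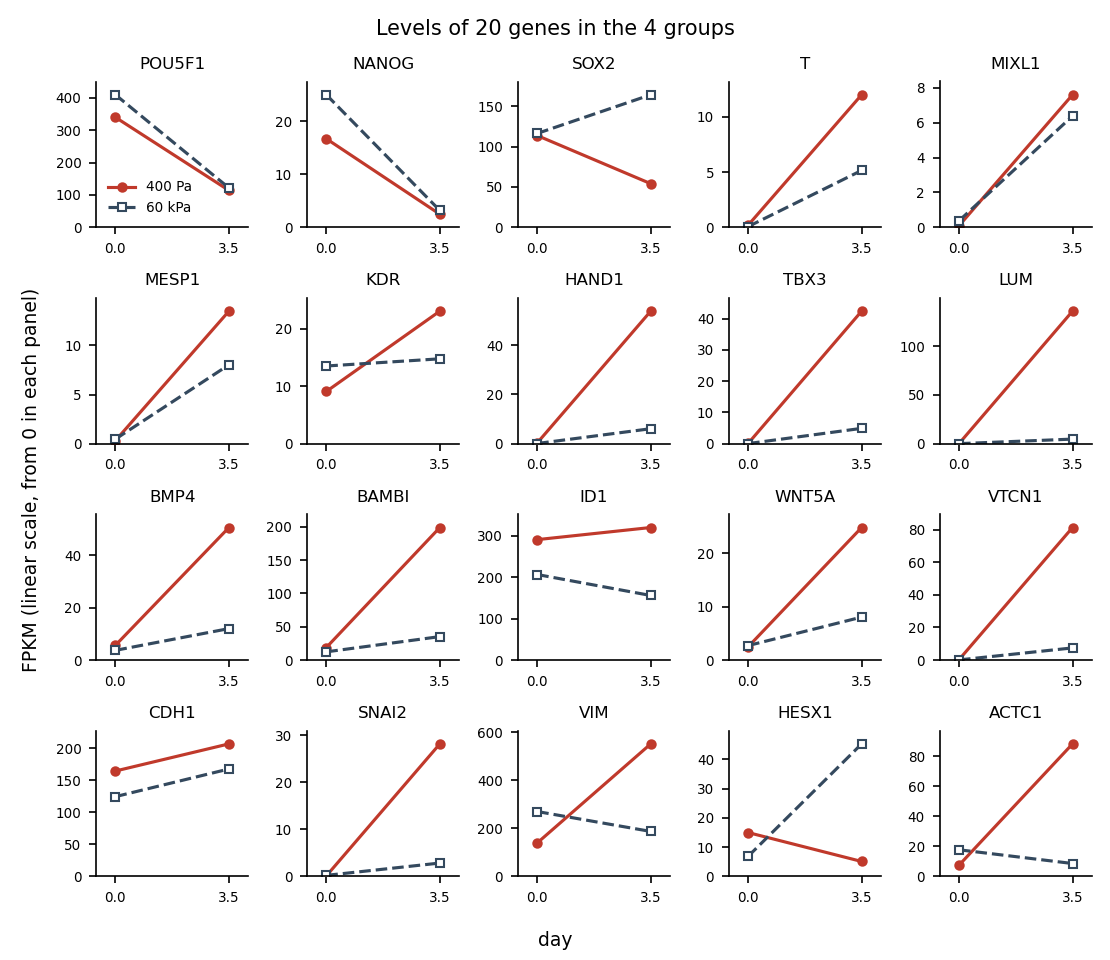
FPKM (y axis, linear and from 0 in each panel) at day 0 and day 3.5 for 20 genes, with 400 Pa as filled circles and 60 kPa as open squares; each point is the authors' value for 1 group of 2 libraries, so there are no error bars. HAND1, TBX3, LUM and VTCN1 start near the floor on both gels and end higher on 400 Pa, while SOX2, VIM, HESX1 and ACTC1 go in opposite directions on the gels.

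The design does not separate BMP4 from the other 3 factors, so genes of the BMP pathway are described as they stood on the 2 days. Of 16 BMP target genes compared, 14 were higher and none lower (median 2.28); 7 of the 16 were below 1 FPKM at day 0, and among the 9 others 7 were higher. BAMBI, a decoy receptor induced by BMP and WNT, was at 18.8 FPKM at day 0 and 199 at day 3.5 (3.34). ID2 and ID3, inhibitors of bHLH factors and direct SMAD targets, went from 77.4 and 106 FPKM at day 0 to 339 and 258 at day 3.5. ID1, the best known of that family as a BMP target, was high on both days, at 291 and 321 FPKM (0.14). The inhibitory SMADs differed in the same way: SMAD6 was at 2.88 and 14.8 FPKM (2.02), while SMAD7 was at 11.0 and 19.2 FPKM (0.75). ID1 was thus at nearly the same level on both days, unlike ID2 and ID3. ID4 (15.9 and 38.6 FPKM) and the homeobox gene DLX5 (0.376 and 6.98 FPKM) were higher, and DLX3 and ATOH8 stayed below 1 FPKM.

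Among BMP ligands 4 of 5 compared were higher, 2 of these 4 from below 1 FPKM at day 0. BMP4 (chr14:54416454-54425479, hg19) itself, the factor supplied in the medium, was at 5.61 FPKM at day 0 and 50.5 at day 3.5 (2.96), against 3.69 and 12.0 FPKM on 60 kPa. GDF6 was at 0.0530 and 3.88 FPKM (2.21), BMP2 at 2.65 and 7.08 FPKM (1.15) and BMP7 at 19.5 and 19.7 FPKM (0.01). BMP5 was listed at 0 at day 0 and was at 4.19 FPKM at day 3.5, while BMP6, BMP8A, GDF7 and GDF10 were below 1 FPKM on both days and GDF5 had no row at day 0. Of 9 receptors and SMADs, 7 stayed within 2-fold: the type I receptor BMPR1A was at 60.2 and 55.6 FPKM and the signal transducer SMAD5 at 50.8 and 55.3 FPKM, whereas SMAD9 was higher, at 0.878 and 5.28 FPKM (1.74), as was the endothelial receptor ACVRL1, at 0.105 and 2.34 FPKM (1.60). The receptors BMPR2 (4.09 and 7.76 FPKM), ACVR1 (3.35 and 6.19 FPKM), ACVR2A (10.7 and 17.1 FPKM) and ACVR2B (19.9 and 18.6 FPKM) and the transducer SMAD1 (31.9 and 23.3 FPKM) had changes between -0.44 and 0.78, BMPR1B was below 1 FPKM and SMAD4 lies in a merged row. Secreted antagonists were higher in 4 of 10, 2 of these 4 from below 1 FPKM at day 0. BMPER, which binds BMPs in the matrix, was at 1.0 and 18.7 FPKM (3.30), NOG (noggin) at 0.363 and 3.78 FPKM (1.81), and FST (follistatin, which binds Activin) at 16.4 and 57.7 FPKM (1.76). CHRDL1, a chordin-like antagonist, was lower, at 9.46 and 3.29 FPKM (-1.29). GREM1 was higher (0.969 and 4.29 FPKM), and CHRD, FSTL1, FSTL3, TWSG1 and SOSTDC1 had changes from 0.30 to 0.92. CHRDL2 had no day 3.5 row and NBL1 lies in a merged row.

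The Nodal and Activin pathway had no common direction, with 4 of 11 members higher, 2 lower and a median of 0.14. Among ligands, NODAL was at 2.41 FPKM at day 0 and 6.46 at day 3.5 (1.13) and GDF3 at 2.14 and 0.897 FPKM (-0.73). The transducers SMAD2 (80.0 and 88.3 FPKM) and SMAD3 (4.13 and 6.80 FPKM) and the receptor ACVR1B (3.49 and 3.5 FPKM) stayed within 2-fold. The co-receptor TDGF1 and the partner FOXH1 were lower, as given above. FURIN, a protease that matures the ligands, was at 6.08 and 21.9 FPKM (1.69). SKIL, a repressor of SMADs, was at 67.6 and 36.5 FPKM (-0.87), ACVR1C, INHBA and INHBB were below 1 FPKM on both days, and CFC1, a relative of TDGF1, had no row at day 0 and was at 1.15 FPKM at day 3.5.

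WNT ligands are not part of the cocktail. Of 19 listed, 8 could be compared and were higher, 7 of them from below 1 FPKM at day 0, 8 stayed below 1 FPKM on both days and 3 had no row at day 0. WNT8A, a ligand of the posterior streak, was at 0.162 FPKM at day 0 and 26.1 at day 3.5 (4.54). WNT5A and WNT5B, ligands mostly acting outside beta-catenin, went from 2.47 and 0.534 FPKM at day 0 to 24.8 and 22.7 at day 3.5. WNT3, needed for streak formation, was at 0.753 and 2.89 FPKM (1.15), and WNT3A at 0.0784 and 1.27 FPKM (1.07). At day 3.5 WNT8A, WNT5A and WNT5B were above 20 FPKM, and WNT3 and WNT3A below 3 FPKM. The authors' deposited table called 2 ligands, WNT8A and WNT5A, as higher on 400 Pa at day 3.5 (q = 0.00783 for each). Over the 14684 symbols that table tested at day 3.5, 1.20% were called higher on 400 Pa and 0.218% higher on 60 kPa.

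WNT target genes were higher in 8 of 15 and lower in none. Of the 15, 7 were below 1 FPKM at day 0 and 6 of these were higher, and of the 8 others 2 were higher. LEF1, the transcription factor partner of beta-catenin, was at 0.833 FPKM at day 0 and 33.0 at day 3.5 (4.21), SP5, a zinc-finger target in the streak, was at 0.0630 and 9.31 FPKM (3.28), and DKK1, a secreted inhibitor, was at 0.479 and 21.6 FPKM (3.93). AXIN2, the general feedback target, was at 9.69 and 13.9 FPKM (0.48), and TCF7 was at 3.75 and 4.41 FPKM (0.19). Among 19 receptors and agonists, RSPO2 and RSPO3, secreted enhancers, were at 0.277 and 0.0154 FPKM at day 0 and 11.3 and 4.18 at day 3.5, and FZD7, the main frizzled of human embryonic stem cells, was lower, at 41.3 and 17.2 FPKM (-1.22). Of 9 antagonists 2 were higher, DKK1 and APCDD1 (1.48 and 7.45 FPKM), 2 were lower and 5 stayed within 2-fold. SFRP1 and SFRP2, secreted frizzled-related proteins, were lower, at 82.8 and 31.4 FPKM at day 0 and 15.4 and 11.7 at day 3.5. A small RNA gene lies within SFRP1.

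Promoter sequences of 4 induced genes are shown because each holds, within the 250 bases before its RefSeq start (build GRCh38.p14), letters that belong to the WNT or BMP branch. The letters searched on both strands were ATCAAAG, a site of TCF and LEF factors, GGCGCC, an element described in BMP target genes and read by SMAD proteins, ATTTGCAT, the octamer of POU factors, and AGGTGTGA, a site of T-box factors. The last pair had no match in these 4 windows, which were chosen for matches to the first pair. Capitals mark the matches, and each sequence runs 5′ to 3′ along its gene's strand.
HAND1, chr5:154478228-154478477, minus strand: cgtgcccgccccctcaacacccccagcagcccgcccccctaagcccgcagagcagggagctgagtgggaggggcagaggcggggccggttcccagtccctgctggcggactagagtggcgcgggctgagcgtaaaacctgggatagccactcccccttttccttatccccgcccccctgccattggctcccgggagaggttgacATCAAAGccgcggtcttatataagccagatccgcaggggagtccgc
SP5, chr2:170715087-170715336, plus strand: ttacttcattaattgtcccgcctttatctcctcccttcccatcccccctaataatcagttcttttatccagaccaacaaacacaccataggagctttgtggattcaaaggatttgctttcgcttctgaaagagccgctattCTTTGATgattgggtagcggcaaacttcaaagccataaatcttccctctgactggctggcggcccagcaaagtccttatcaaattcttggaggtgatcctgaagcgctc
MIXL1, chr1:226223414-226223663, plus strand: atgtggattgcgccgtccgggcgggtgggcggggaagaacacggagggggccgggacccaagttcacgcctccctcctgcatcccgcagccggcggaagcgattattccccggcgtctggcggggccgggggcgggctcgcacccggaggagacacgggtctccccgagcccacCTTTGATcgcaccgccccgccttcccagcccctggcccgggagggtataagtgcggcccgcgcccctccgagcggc
BAMBI, chr10:28677271-28677520, plus strand: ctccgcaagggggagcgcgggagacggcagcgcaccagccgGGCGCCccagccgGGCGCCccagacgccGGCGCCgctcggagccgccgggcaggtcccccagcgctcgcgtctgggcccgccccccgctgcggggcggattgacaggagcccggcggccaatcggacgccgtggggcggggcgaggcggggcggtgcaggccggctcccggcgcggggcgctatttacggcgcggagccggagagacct
The TCF and LEF letters begin 46 bases before the start of HAND1, and on the other strand 109 and 76 bases before the starts of SP5 and MIXL1. BAMBI holds GGCGCC 3 times, beginning 209, 196 and 181 bases before its start. Over the 27305 promoters of the RefSeq table, 2.28% hold ATCAAAG, 16.1% GGCGCC, 1.66% ATTTGCAT and 0.787% AGGTGTGA in a window of this length. RefSeq promoters were matched by symbol for 8823 of the 15153 symbols compared (58.2%), too few to compare shares between groups of genes. A match is a description of these letters only.

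Of 7 FGF ligands compared, 3 were higher, 1 was lower and 3 stayed within 2-fold. Of the 3 higher ligands, 2 were below 1 FPKM at day 0. FGF2, the gene of bFGF, was at 16.5 FPKM at day 0 and 3.90 at day 3.5 (-1.83). FGF8, a ligand of the streak, was at 0.0906 and 3.05 FPKM (1.89), FGF19 at 1.59 and 10.9 FPKM (2.20) and FGF10, a ligand of lateral mesoderm, at 0.156 and 3.68 FPKM (2.02). Of 19 receptors and ERK feedback genes 15 stayed within 2-fold, 3 were lower and 1 was higher. FGFR1, the main receptor of these cells, was at 263 and 117 FPKM (-1.16) and ETV4, an ETS factor induced by ERK, at 16.6 and 4.01 FPKM (-1.81). The phosphatase DUSP6, another ERK feedback gene, was at 49.7 and 59.8 FPKM on 400 Pa, but at 88.0 and 19 FPKM on 60 kPa. At day 3.5 FGF2 was below FGF19 and slightly above FGF8 and FGF10.

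The VEGF branch was higher in 5 of 9 genes and lower in none. KDR (chr4:55919227-55991756, hg19), the VEGF receptor used to sort mesoderm progenitors, was already at 9.07 FPKM at day 0 and was at 23.0 at day 3.5 (1.26). The co-receptors NRP1 and NRP2 went from 3.13 and 11.6 FPKM at day 0 to 9.42 and 92.4 at day 3.5, and the ligand PGF was at 1.34 and 13.7 FPKM (2.66). FLT1, the decoy receptor, was at 31.2 and 25 FPKM (-0.31) and VEGFA at 9.24 and 13.6 FPKM (0.52). VEGFB was higher (7.95 and 22.5 FPKM), while VEGFC (0.343 and 1.54 FPKM) and the receptor FLT4 (2.18 and 1.83 FPKM) were within 2-fold. RNA of VEGF receptors was therefore present before VEGF was added, and receptor protein was not measured. On 60 kPa KDR was at 13.5 and 14.8 FPKM; the difference between the gels in its change was 1.22 (SE 0.66) and did not pass the test.

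Of 16 haemato-endothelial genes compared, 6 were higher, 1 was lower and 9 stayed within 2-fold; 8 of the 16 were below 1 FPKM at day 0. ETV2, the ETS factor that starts the endothelial programme, was at 0.335 FPKM at day 0 and 2.04 at day 3.5 (1.19), GATA2 at 0.698 and 6.27 FPKM (2.10), LMO2 at 0.905 and 4.09 FPKM (1.42) and ERG at 0.0839 and 2.94 FPKM (1.86). A further 11 genes of the list stayed below 1 FPKM on both days, among them markers of differentiated vessel and blood cells: CDH5 (VE-cadherin) reached 0.662 FPKM, CD34 0.539, RUNX1 0.475 and PTPRC (CD45) 0.0405. Other vessel genes were present on both days, the angiopoietin receptor TEK at 10.8 and 5.82 FPKM, its relative TIE1 at 1.62 and 1.04 FPKM and EGFL7, a secreted endothelial protein, at 14.1 and 24.4 FPKM. KLF1, an erythroid factor, was at 0.449 and 1.37 FPKM. MYB, a factor of definitive blood that is also expressed by embryonic stem cells, was lower, at 2.94 and 0.644 FPKM (-1.26). The surface markers ROR2 (4.26 and 24.0 FPKM, 2.25) and NCAM1 (1.66 and 9.01 FPKM, 1.91) were higher, EPCAM was at 169 and 115 FPKM (-0.56), and PDGFRA shares a merged row with FIP1L1, so that its own level is not known.

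Of 18 amnion and trophoblast genes compared, 17 were higher and none was lower (median 2.24). Of these 18, 9 were below 1 FPKM at day 0, and among the 9 others 8 were higher. HAPLN1, a hyaluronan-binding link protein, was at 8.6 FPKM at day 0 and 825 at day 3.5 (6.43). A small RNA gene lies within it, and it had the same size of change on 60 kPa (2.93 and 319 FPKM). VTCN1 (chr1:117686069-117753556, hg19), an immune checkpoint ligand of trophoblast and amnion, was at 0.237 and 81.3 FPKM (6.06), and GABRP, a GABA receptor subunit, was at 0.888 and 62.0 FPKM (5.06). The transcription factors had smaller changes: GATA3 was at 0.647 and 8.02 FPKM (2.45), TFAP2A at 2.41 and 13.6 FPKM (2.10), TFAP2C at 5.76 and 11.7 FPKM (0.91) and TP63, a factor of surface epithelium and trophoblast, was listed at 0 and at 3.21 FPKM. Markers of mature trophoblast were at or near 0, with CGA at 0.242 FPKM and GCM1 at 0.0118 at day 3.5. The simple epithelial keratins KRT8 (97.3 and 619 FPKM) and KRT18 (63.2 and 173 FPKM) were higher as well, as was the merged row of JUP, KRT17 and KRT19 (95.7 and 667 FPKM).

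Of 19 epithelial genes compared, 7 were higher, 12 stayed within 2-fold and none was lower (median 0.33, against 0.27 for ribosomal protein genes); CDH1, the epithelial cadherin, was at 164 FPKM at day 0 and 206 at day 3.5 (0.33), CLDN6, a claudin of pluripotent epithelium, was at 257 and 197 FPKM (-0.38), and DSP, desmoplakin, was at 10.8 and 65.5 FPKM (2.5). Of 16 genes of mesenchymal transition, 14 were higher and none was lower (median 1.99), 6 of the 16 being below 1 FPKM at day 0. SNAI2, a repressor of cadherin genes, was at 0.107 and 28.2 FPKM (4.72), ZEB2, another such repressor, was at 0.302 and 14.7 FPKM (3.60), and CDH11, a mesenchymal cadherin, was at 6.43 and 106 FPKM (3.84). CDH2, the cadherin of nascent mesoderm, was at 12.8 and 32.8 FPKM (1.29), and SNAI1 was only at 0.866 and 3.06 FPKM (1.12). CDH1 was thus not lower in the libraries in which these mesenchymal genes were higher. TWIST1 was at 0.134 and 4.64 FPKM (2.31) on 400 Pa and at 0.234 and 0.362 FPKM on 60 kPa.

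The matrix that surrounds mesenchymal cells was represented by 9 of 21 collagen genes and 12 of 27 other matrix genes that were higher, with none lower in either list. Of these higher genes, 4 of the 9 collagens and 3 of the 12 others were below 1 FPKM at day 0. The 3 chains of collagen VI, COL6A1, COL6A2 and COL6A3, went from 7.12, 11.4 and 0.558 FPKM at day 0 to 33.8, 57.3 and 16.2 at day 3.5. COL2A1, the cartilage and notochord collagen, was at 0.564 and 41.5 FPKM (4.76). FN1, fibronectin, was at 18.4 and 84.9 FPKM (2.15), and its receptor chain ITGA5 at 5.95 and 23.5 FPKM (1.82), while ITGA6, a laminin receptor chain of embryonic stem cells, was lower, at 65.5 and 23.3 FPKM (-1.45). The laminin chains LAMC1 (27.1 and 30.2 FPKM) and LAMA5 (15.2 and 11.4 FPKM) stayed within 2-fold. The proteases MMP2 (11.0 and 47.1 FPKM) and ADAMTS9 (0.738 and 20.8 FPKM) were higher.

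Endoderm and neuroectoderm, the lineages the cocktail was not aimed at, were represented unevenly. The endoderm markers FOXA2 and HNF4A stayed below 1 FPKM on both days and SOX17 was at 0.234 FPKM at day 3.5 with no row at day 0. The 7 of 12 higher members of the endoderm list, 5 of them below 1 FPKM at day 0, include CER1, GATA4, GATA6 and CXCR4, which mesoderm also expresses. Of 16 neuroectoderm genes, 6 were higher, 5 of them from below 1 FPKM at day 0, and 2 were lower. The median was 0.85 and turned to -0.04 at a minimum of 5 FPKM. PAX6, a factor of neural ectoderm and surface ectoderm, was at 0.597 FPKM at day 0 and 17.2 at day 3.5 (3.51), whereas SOX1, specific to neural ectoderm, stayed at 0.0095 and 0.0101 FPKM. HESX1 and FEZF1, of the anterior neural plate, were lower on 400 Pa, at 15 and 36.4 FPKM at day 0 and 5.11 and 15.8 at day 3.5, and were higher on 60 kPa, at 45.3 and 99.4 FPKM at day 3.5. The 4 neuroectoderm markers summed to 0.638 and 20.3 FPKM on 400 Pa, most of it PAX6.

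**Figure D3:**
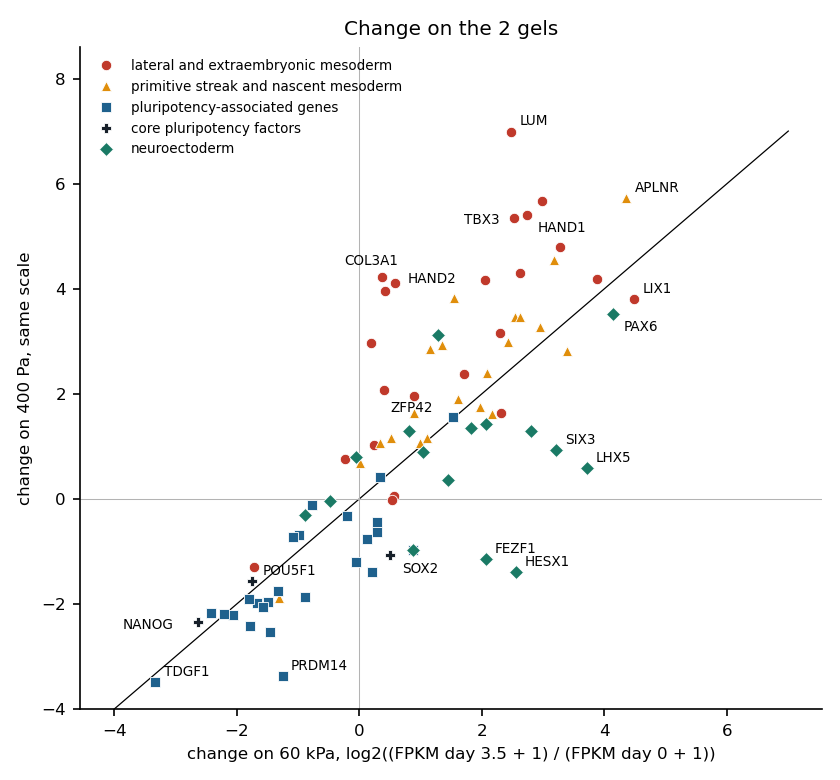
Change from day 0 to day 3.5 on 60 kPa (x axis) against that on 400 Pa (y axis) for members of 5 lists, each point 1 gene and the line marking equal change. Most lateral mesoderm genes (red) lie above the line, the neuroectoderm genes HESX1, FEZF1, LHX5 and SIX3 (green) lie below it, and NANOG, POU5F1 and TDGF1 lie close to it.

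HOX and CDX genes, which encode position along the body axis, were nearly absent from the day 0 table and present at day 3.5. Of 42 listed genes, 16 had a row of their own only at day 3.5, 17 lay in rows merged with neighbours, and 7 could be compared. All 7 were below 1 FPKM at day 0 and entered through day 3.5, so their direction was fixed by the minimum. CDX2, which activates posterior HOX genes and also marks trophoblast, had no row at day 0 and was at 14.8 FPKM at day 3.5; CDX1 was listed at 0 and at 6.23 FPKM, and CDX4 was at 0.972 and 7.65 FPKM (2.13). The anterior member HOXB1 (listed at 0 at day 0 and at 4.83 FPKM at day 3.5) was found beside posterior ones such as HOXB9 (7.76 FPKM) and HOXA13 (5.25 FPKM). The merged row of HOXB3, HOXB4 and HOXB6 was at 0.256 and 16.1 FPKM, and that of HOXA9 and HOXA10 with a neighbour at 0.0773 and 10.3 FPKM. On 60 kPa at day 3.5 CDX2 was at 1.74 FPKM, HOXB9 at 0.395 and HOXA13 at 0.162, and the 2 merged rows were at 1.67 and 0.238 FPKM.

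**Figure D4:**
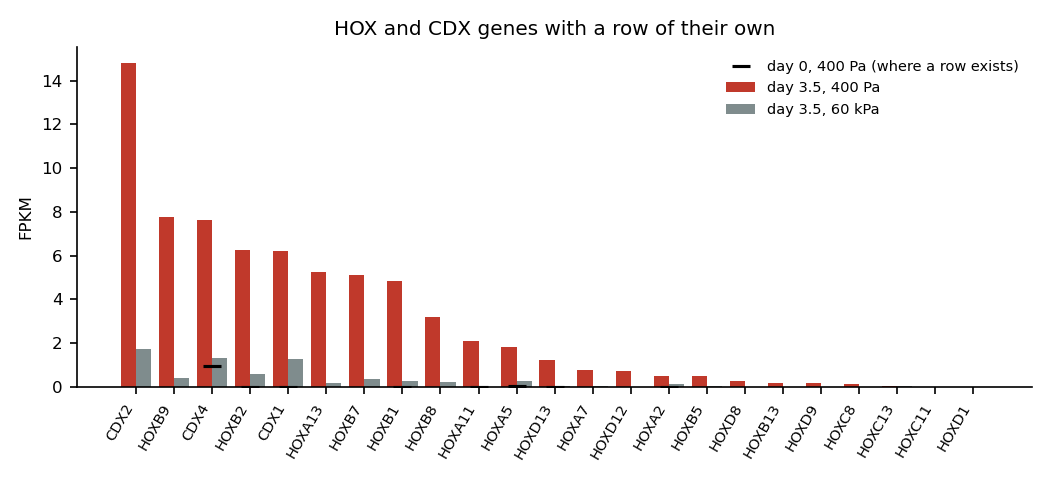
FPKM at day 3.5 on 400 Pa (red bars) and 60 kPa (grey bars) for 23 HOX and CDX genes with a row of their own, with the day 0 level on 400 Pa as a black dash where the day 0 table has a row. CDX2 is highest at 14.8 FPKM, and 12 genes reach 1 FPKM on 400 Pa against 3 on 60 kPa.

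Genes without a day 0 row are not in the counts above. In all, 192 single symbols with at least 1 FPKM on 400 Pa at day 3.5 had no row at day 0, and 143 had one at day 0 alone. Many of these are small RNA genes or pseudogenes, but named developmental genes among them included EVX1, a homeobox factor of the posterior streak (1.27 FPKM), NKX2-5, a cardiac homeobox factor (1.16 FPKM), WNT6 (1.16 FPKM), TFAP2B (1.21 FPKM) and VGLL1, a trophoblast cofactor whose gene holds a small RNA gene (1.75 FPKM). Counting each of them as 0 at day 0 gave 1671 higher symbols in place of 1479. Of 1135 merged rows present in both tables, 87 were higher and 43 lower. The row of IGF2, INS and INS-IGF2 was at 0.0278 FPKM at day 0 and 57.0 at day 3.5 (5.82), and H19, the imprinted noncoding RNA next to IGF2, was at 0.699 and 58.0 FPKM (5.12).

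Genes of the cytoskeleton, growth and metabolism went in both directions or stayed level. Over all 15153 symbols compared, 9.76% were higher, 6.16% were lower and 12741 symbols stayed within 2-fold. Of 26 actin and serum response genes 4 were higher and 4 lower (median -0.22): ACTC1, cardiac alpha-actin, was at 7.49 FPKM at day 0 and 88.3 at day 3.5 (3.40), while ACTA1, skeletal alpha-actin, was at 11.4 and 0.441 FPKM (-3.10), TAGLN at 195 and 46.7 FPKM (-2.04) and ACTB, cytoplasmic beta-actin, at 1652 and 739.7 FPKM (-1.16). Of 18 YAP and TAZ target genes 6 were higher and 2 lower, with ANKRD1 at 0.141 and 14.4 FPKM (3.76) and CTGF at 16.4 and 1.83 FPKM (-2.62). Of 19 glycolysis genes 5 were higher, none was lower and 14 stayed within 2-fold. The general enzymes GAPDH (1439.8 and 1559 FPKM) and ENO1 (881 and 880.3 FPKM) stayed level, while the enzyme PKM was at 397 and 1157 FPKM. The lactate transporter SLC16A3 was at 7.73 and 172 FPKM (4.31), LDHA at 68.5 and 197 FPKM (1.51) and the glucose transporter SLC2A1 at 54.9 and 188 FPKM (1.75). Of 32 cell cycle genes 30 stayed within 2-fold (median -0.34), MKI67 being at 21.1 and 17.5 FPKM, and CDKN1C, an inhibitor of cyclin-dependent kinases, was higher, at 6.76 and 20.9 FPKM (1.5). The actin gene ACTB, often used as a reference, was thus lower while GAPDH was not.

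**Figure D5:**
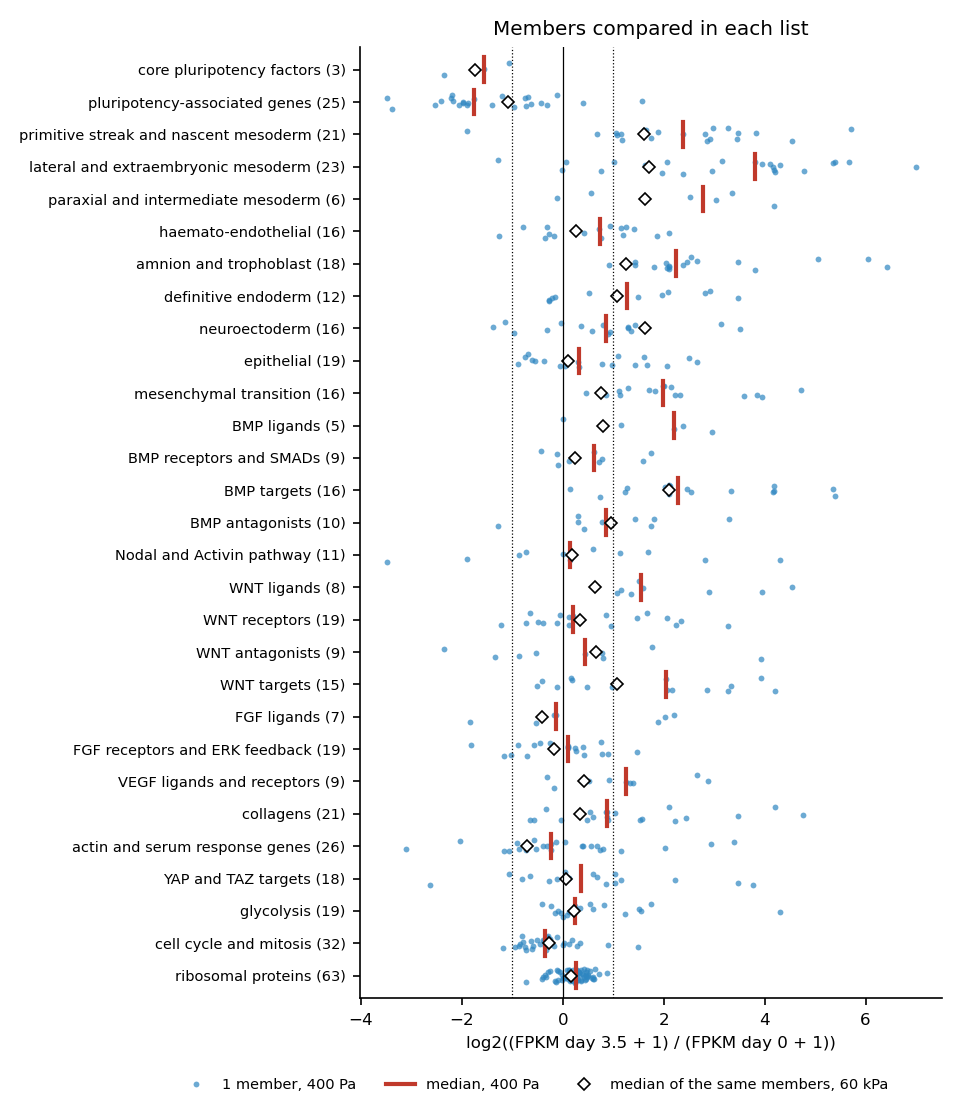
Change from day 0 to day 3.5 on 400 Pa, log2((FPKM day 3.5 + 1) / (FPKM day 0 + 1)), for each member compared (dots) of 29 lists, with the number compared in brackets, the list's median on 400 Pa (red bar) and the median of the same members on 60 kPa (diamond). Medians run from -1.76 for pluripotency-associated genes to 3.80 for lateral and extraembryonic mesoderm, and ribosomal protein genes lie within 2-fold.

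Beyond the lists, small RNA genes were frequent among the symbols with the largest changes. Of the 15 largest increases among symbols with at least 10 FPKM on either day, 8 are small RNA genes of the annotation, snoU13, a small nucleolar RNA outside it, ranked first, 8 symbols were listed at 0 at day 0, and LUM, ZNF275, HAPLN1, RGS4 and VTCN1 are protein-coding genes. Of the 15 largest decreases, 14 were listed at 0 at day 3.5, the first being RN7SK, at 51293 FPKM at day 0 and listed at 0 at day 3.5 on 400 Pa, but at 128798 FPKM at day 3.5 on 60 kPa. Such zeros may be failed estimates, and no fold is given for them. Leaving out small RNA genes, genes that hold one, symbols outside the annotation and zeros, a choice made after the values were seen, the next increases included RGS4, a regulator of G-protein signalling (0.0807 and 77.0 FPKM), IGFBP7 (1.46 and 79.0 FPKM), the growth factor gene HGF (0.275 and 29.6 FPKM) and TGFBI, a matrix protein induced by TGF-beta (6.39 and 158 FPKM). The decreases were led by IDO1, a tryptophan-degrading enzyme (152 and 7.17 FPKM, -4.22), TDGF1, the receptor gene GPR176 (44.0 and 3.13 FPKM), the germ-cell gene DAZL (22.9 and 1.27 FPKM) and PHC1, a Polycomb subunit (64.3 and 6.10 FPKM).

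Whether the change depended on the gel was the only comparison with a test. The difference of the change, 400 Pa minus 60 kPa, was computed from the log2 ratios of the authors' deposited tables at each day, with errors implied by their test statistics and a normal approximation adjusted by Benjamini-Hochberg over 13985 symbols. At adjusted p below 0.05, 7 symbols (0.0501%) had a greater change on 400 Pa and 4 (0.0286%) a greater change on 60 kPa. At an unadjusted p below 0.05 there were 131. The median SE was 1.21, so only large differences could pass. The authors' own p-values do not follow a normal reading of their statistics. At day 3.5 ELN had a statistic of -0.774 with an authors' p of 0.0007, and HAND2 one of -3.66 with 0.03995. The implied errors may thus be too large for some genes and too small for others. A difference that did not pass is not shown to be absent. Of the 1479 higher symbols 940 could be tested, and 507 had not been tested by the authors at day 0, most of the mesoderm factors among them: 9 of 23 lateral mesoderm genes were tested, and HAND1 was not.

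Of the genes on the lists, VIM, ANXA1 and HESX1 passed. VIM, the intermediate filament vimentin of mesenchymal cells (chr10:17256238-17279634, hg19), was at 139 FPKM at day 0 and 552 at day 3.5 on 400 Pa, and at 270.2 and 187 FPKM on 60 kPa; the difference was 2.51 (SE 0.52). ANXA1, a calcium-dependent membrane-binding protein, was at 12.7 and 46.8 FPKM on 400 Pa and at 25.4 and 10.6 FPKM on 60 kPa (3.13, SE 0.69). HESX1 (chr3:57231756-57260549, hg19) was at 15 and 5.11 FPKM on 400 Pa and at 6.86 and 45.3 FPKM on 60 kPa (-4.28, SE 0.91). In all 3 the order of the gels was opposite on the 2 days, so that the day 0 levels contribute to the difference. BAMBI (1.89, SE 0.62) and CDH11 (1.57, SE 1.21) did not pass. Of the 1479 symbols higher on 400 Pa, 533 (36.0%) were also higher on 60 kPa, which is 56.6% of the 942 symbols higher there among those compared; of the 933 lower symbols, 331 (35.5%) were also lower on 60 kPa, 53.7% of 616.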

How the data were processed

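Total RNA of H9 cells was sequenced in 8 libraries, 4 groups of 2, and 4 of these make up the comparison on 400 Pa. Per the submitters' processing notes, Cufflinks and build hg19 were used; no source used here gives the aligner, annotation, version or strandedness. The deposited tables, 1 per day, hold 1 FPKM per gel for each locus, with the authors' log2 ratio between gels, their test statistic (a score), p-value and q-value. They give no value per library and no depth, so a level has no SD here.

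Rows with 1 gene symbol were joined between days by symbol, taking the row of highest mean FPKM. Symbols with at least 1 FPKM on either day were kept, and the change was computed with a pseudocount of 1, without a test. The difference between gels was tested as the difference of the deposited log2 ratios, with errors taken as the ratio over its test statistic, a two-sided normal approximation and Benjamini-Hochberg adjustment. This calculation was also run on simulated data, drawn from a normal distribution with the same implied errors. That run cannot check whether the errors or the normal approximation hold for the deposited values. P-values measure only the spread between the authors' libraries, which may be technical. Python 3.11.15, pandas 2.3.3, numpy 2.4.6 and scipy 1.17.1 were used.

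Genes were named by rule: the 15 largest changes in each direction at 10 FPKM or more, the members of largest change and highest level of each list, all members of the pluripotency, streak, lateral mesoderm, BMP, Nodal and VEGF lists, and the smallest adjusted p for the gel difference. Members and lists were chosen with earlier results of these data known. Alternatives varied the pseudocount, minimum, scaling, threshold, row choice and small RNA genes. A few genes that the rule names are not reported here.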

Additional observations from a re-analysis of the deposited data

Results flagged for a closer look

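The change from day 0 to day 3.5 differed between the gels for 11 symbols (the difference of log2 ratios, 400 Pa minus 60 kPa, adjusted p below 0.05). VIM had a difference of 2.51, ANXA1 of 3.13 and HESX1 of -4.28, with levels given above. SSRP1, a histone chaperone subunit, had a difference of 3.28, being at 69.3 FPKM at day 0 and 65.6 at day 3.5 on 400 Pa and at 642 and 62.4 FPKM on 60 kPa. ZNF275, a zinc-finger gene, had a difference of 7.89, from 1.78 to 295 FPKM on 400 Pa against 2.10 and 1.46 FPKM on 60 kPa. TSTD3, which holds a small RNA gene, had a difference of 11.57, being at 4.88 and 138 FPKM on 400 Pa and 455 and 4.22 FPKM on 60 kPa. ANXA3, an annexin, had a difference of 3.12 (25.6 and 82.2 FPKM against 44.9 and 16.6 FPKM), and METTL7A of 3.82 (8.33 and 14.3 FPKM against 12.6 and 1.52 FPKM).

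In the other direction, SEMA5B, a guidance factor, had a difference of -6.25, being at 14.9 and 2.64 FPKM on 400 Pa and 4.06 and 55.0 FPKM on 60 kPa. MPLKIP, which holds a small RNA gene, had a difference of -8.75 (63.4 and 2.35 FPKM against 2.38 and 38.1 FPKM). RP1-34H18.1 had a difference of -13.72 (28.5 and 0.403 FPKM against 0.437 and 83.5 FPKM). For SSRP1 the day 3.5 levels were nearly the same on both gels, and its difference came from day 0.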

How the results depend on the processing

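The deposited values allow no SD per gene, no leave-one-out and no depth limit. No paired analysis was possible because the tables give 1 value per group and carry no replicate number. Against 1479 higher and 933 lower symbols, a pseudocount of 0.1 gave 1519 lower symbols, a minimum of 5 FPKM gave 920 higher symbols, and a 4-fold threshold gave 385 higher and 168 lower. Scaling on the median ribosomal protein gene gave 1454 lower symbols; this scaling moves every change down by construction. The other counts stayed within 1.5 times of these, among them 3 alternatives chosen after seeing the data: without symbols listed at 0 (1333 and 829), with rows that overlap between days (1474 and 929), and with missing day 0 rows as 0 (1671 higher). The count of 11 symbols that differed between gels stayed within 1.5 times under the alternatives run. No list median past 2-fold changed sign under the alternatives run. Single genes were varied for list members only, by pseudocount, scaling and row choice. A pseudocount cannot turn a sign, and the scalings moved changes by at most 0.27, so their unchanged signs carry no weight. With a pseudocount of 0.1, 125 of 593 genes and 11 of 41 list medians moved by at least 0.60, the SD of the day 0 comparison between gels. At a minimum of 5 FPKM, 7 list medians moved that far. The median of the neuroectoderm list was 0.85, and -0.04 at a minimum of 5 FPKM.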
